A study of Mus musculus with 35 samples.

Results

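Genes of the machinery that seals and cuts membranes, the ESCRT-III complex and its recycling ATPase, were followed cell by cell in irradiated mouse fibroblasts. The set of 10 genes was taken by symbol (Chmp1a, Chmp1b, Chmp2a, Chmp2b, Chmp3, Chmp4b, Chmp5, Chmp7, Vps4a and Vps4b), and all 10 were among the 19085 genes of the count table. The cells were 35 single MEFs (fibroblasts grown in culture from mouse embryos, here of strain C57Bl/6J), each cut out by laser and sequenced after full-length Smart-seq2 amplification. Both groups had received 1 Gy of ionising radiation and growth at 3% O2, were re-plated on membrane dishes at 32 h and stained with PicoGreen for DNA at 48 h. They differed in that 21 cells held micronuclei, which are small pieces of chromatin in an envelope of their own beside the nucleus, and 14 did not. No unirradiated cell was analysed here, and the labels tie no cell to a culture, embryo or animal. Each group therefore counts as 1 sample, no p-value is given, and the values below describe these cells.

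ESCRT-III proteins are small subunits that polymerise into filaments on the inside of membrane necks and draw them closed. At the nuclear envelope Chmp7 arrives first, through the inner membrane protein Lemd2, and brings in Chmp4b, the main filament protein; Chmp2a, Chmp2b and Chmp3 cap and remodel the filament, Chmp1a, Chmp1b and Chmp5 act late or as regulators, and the ATPases Vps4a and Vps4b take it apart. The same parts close the reforming nucleus at the end of mitosis, cut daughter cells apart, repair ruptures of nuclei and of micronuclei, and form multivesicular endosomes. Transcript counts say nothing about where these proteins sit in a cell.

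Depth was 57514 to 1794113 reads on genes with micronuclei (median 281800) and 56766 to 2023111 without (median 736715), and the cells had 2391 to 8964 genes with at least 1 read. Of 10 fibroblast markers, Col1a1 and Vim reached 5 reads in all 35 cells, whereas Lum did so in 1. Summed over the fibroblast markers, the level was 2873 to 15142 CPM (reads of a gene relative to all reads on genes, on a fixed scale) in micronucleated cells and 5026 to 16419 CPM in the others. Of 10 macrophage markers, 9 reached 5 reads in some cell; their sum was 0 to 15862 CPM with and 0 to 64.1 CPM without micronuclei. In 4 micronucleated cells at least 2 macrophage markers reached 5 reads, and Itgam reached 5 in none. Of these 4, micronucleated cell 10 stood apart: it had 9 macrophage markers at 5 reads and the sum of 15862 CPM. It also had 8 fibroblast markers at 5 reads, with a fibroblast sum of 8215 CPM. Cells 1, 4 and 18 had 2 macrophage markers each. A single macrophage marker reached 5 reads in further cells of both groups, among them micronucleated cell 6, whose macrophage sum was 1452 CPM. The endothelial and epithelial sums reached 33.4 and 28.3 CPM at most, and Krt8 was at 0 in every cell.

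**Figure D1:**
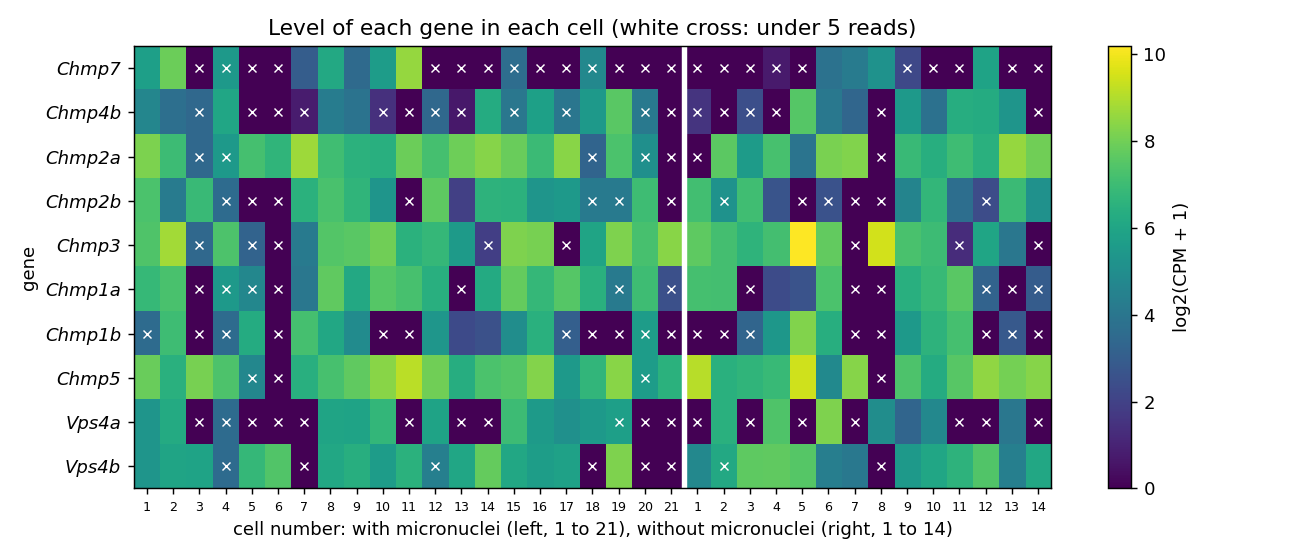
Levels of the 10 genes (rows) as log2(CPM + 1) in every cell (columns: 21 cells with micronuclei on the left, 14 without on the right); a white cross marks fewer than 5 reads. Chmp5, Chmp2a and Chmp3 filled most columns in both groups, Chmp7 reached 5 reads in 7 of 21 and 4 of 14 cells, and non-micronucleated cell 5 held the brightest square, 1164.0 CPM of Chmp3.

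Per length of transcript, Chmp2a and Chmp5 were the most abundant of the 10. Summed over all 35 cells and divided by the length of the merged annotated exons, the level was 157 CPM per kb for Chmp2a and 137 for Chmp5, followed by 57.4 for Chmp3. The other 7 lay between 22.5 (Chmp2b) and 5.40 CPM per kb (Chmp7). Between single cells the SD was about as large as the mean: 100.9 CPM per kb around a mean of 130.5 for Chmp2a, 107.6 around 131.1 for Chmp5 and 70.0 around 53.6 for Chmp3. Neighbours in this order, such as Chmp2a and Chmp5, thus differed by less than the spread over cells, as did Chmp2b, Chmp1a and Chmp1b (22.5, 20.2 and 20.1 CPM per kb). With the length of the principal transcript in place of all exons, Chmp1a stood at 30.9 CPM per kb, above Chmp2b at 23.1. Vps4b at 16.9 then lay beside Vps4a at 17.5 and Chmp4b at 16.6 CPM per kb, and Chmp7 stayed lowest at 12.9. The order below Chmp2a, Chmp5 and Chmp3 thus depends on the length used. Within a cell, Chmp5 had the most reads of the 10 genes in 8 micronucleated cells and 5 others, Chmp2a in 6 and 2, and Chmp3 in 5 and 3 (these are reads, not divided by length).

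Every gene of the 10 was at 0 reads in at least 1 cell of each group, and every gene's values overlapped between the groups. All 10 passed the filter on low values, which asked for 5 CPM in the sum of all cells and for 5 reads in each of 5 cells or more; genes that passed are called measured. Group values are reads summed over the cells of a group in CPM, and their log2 ratio is that of micronucleated over other cells with 1 CPM added to each. The 95% intervals (exact Poisson for CPM, exact binomial, by Clopper and Pearson, for ratios and shares) hold counting error and nothing else, since these reads carry no molecular identifiers. Those of shares of cells count the cells as independent, which the labels do not show, and serve as description. Of the 10 genes, 4 had a higher and 6 a lower sum with micronuclei, and 56.0% of all measured genes had a higher one. Past 2-fold were 2 of them, Chmp7 higher and Chmp3 lower, against 37.7% of all 8390 measured genes (22.9% higher and 14.7% lower). The median log2 ratio of the 10 was −0.14, and that of all measured genes 0.15. With every cell given equal weight the medians were −0.26 and 0.05, and 1 gene, Chmp7, was past 2-fold, against 26.2% of measured genes (15.7% higher and 10.5% lower). Without the 4 cells in which at least 2 macrophage markers reached 5 reads, the summed median was again −0.14. Cells with a single such marker stayed in. Past 2-fold were then 3 genes, Chmp7 at 2.51, Chmp3 at −1.22 and Vps4a at −1.34. Of the 8138 genes measured there, 38.4% were past 2-fold (22.6% higher and 15.8% lower). As a difference of the mean log2(CPM + 1) over cells, 8 of the 10 were higher. The medians were 0.27 for the 10 and 0.30 for all measured genes, so genes at large were higher in this measure as well. The 10 genes therefore had no common direction that held across the ways of weighting cells.

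**Figure D2:**
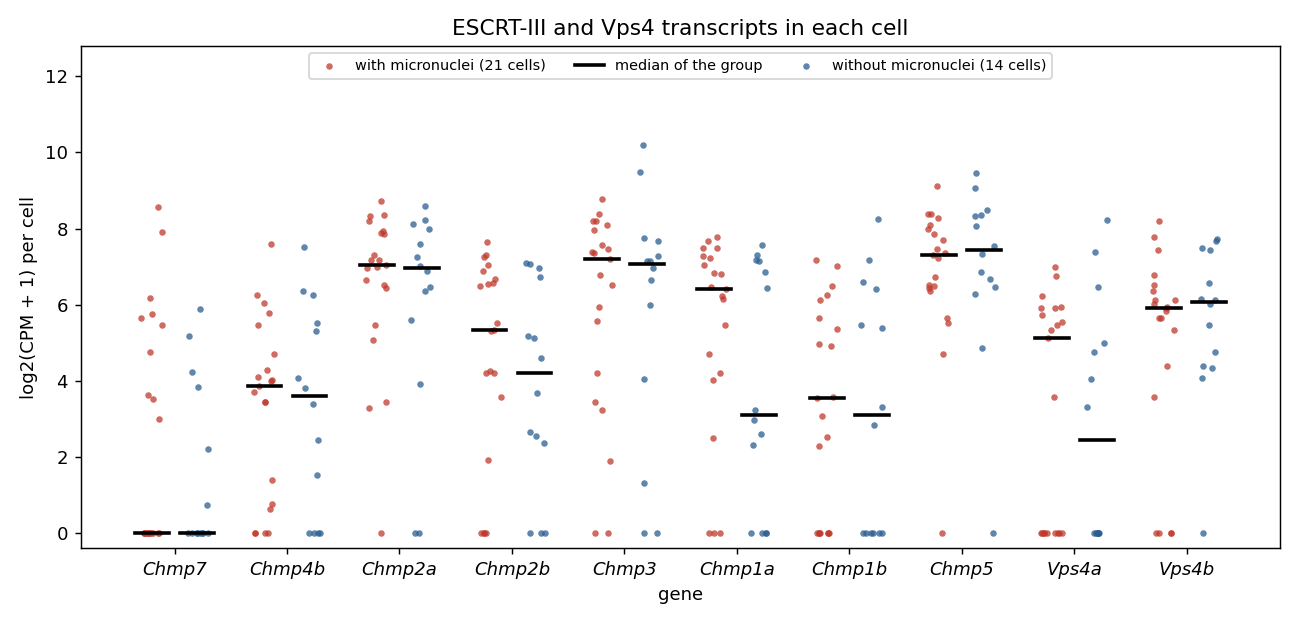
Each point is the level of 1 gene in 1 cell as log2(CPM + 1), red with and blue without micronuclei; black bars are group medians. The groups overlapped for all 10 genes, with medians of 0 for Chmp7 in both and with the largest gap between bars for Chmp1a (84.7 and 7.60 CPM).

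Chmp7, the subunit that brings ESCRT-III to the nuclear envelope (GRCm38 chromosome 14, 69717000 to 69732541, minus strand), was patchy in both groups. In micronucleated cells it ranged from 0 to 378 CPM around a median of 0, and in the others from 0 to 58.5 CPM around a median of 0. It had no read in 11 of 21 and 8 of 14 cells. The highest cells were micronucleated cells 11 (378 CPM), 2 (241 CPM) and 8 (70.7 CPM), which were the 3 above every cell without micronuclei, so the groups differed in a few high cells and overlapped in all the rest. Summed, Chmp7 stood at 59.5 CPM (55 to 64.2) with and 9.82 CPM (8.10 to 11.8) without micronuclei, which is a log2 ratio of 2.48 (2.22 to 2.76). Equal weights gave 2.09, and the difference of mean log2(CPM + 1) was 1.02. Cell 11 held 56.5% of all its reads, and the log2 ratio was 1.11 without it; it was 3.05 without non-micronucleated cell 8. The mean over cells was 42.4 CPM (SD 93.9 over 21 cells) against 9.22 (SD 17.5 over 14), and the difference was smaller than the first of these SDs.

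The share of cells with Chmp7 differed less than the sums. At least 5 reads were found in 7 of 21 micronucleated cells (33.3%, 95% interval 14.6 to 57.0) and in 4 of 14 others (28.6%, 8.39 to 58.1). Once every cell was thinned at random to 115191 reads, which left 18 and 13 cells, the counts were 5 of 18 and 2 of 13. These shares describe the cells at hand, and no test of them was made. Cell 11, which carried most of the Chmp7 reads, also had an ERCC spike-in share of 6.27%, 5054 genes detected and the lowest fibroblast marker sum of all cells, 2873 CPM. The part of these features in its Chmp7 level was not tested.

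Chmp4b, the main filament subunit (chromosome 2, 154651705 to 154694785, plus strand), was scarce. Its levels were 0 to 191 CPM around a median of 13.6 in micronucleated cells and 0 to 181 CPM around 11.2 in the others, so the groups covered the same range. Summed, it was lower at 18.6 CPM (16.1 to 21.3) with and 34.7 CPM (31.4 to 38.3) without micronuclei, which is a log2 ratio of −0.87 (−1.10 to −0.63). That sum leaned on non-micronucleated cell 5, which held 29.4% of all Chmp4b reads. Such a share was common: over all measured genes, the cell with most reads of a gene held a median of 27.6%. Dropping cell 5 gave a log2 ratio of −0.17 for Chmp4b, and dropping micronucleated cell 14 gave −1.70. The difference of mean log2(CPM + 1) was 0.012. Chmp4b reached 5 reads in 9 of the 21 and 8 of the 14 cells, and after thinning in 2 of 18 and 5 of 13.

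In summed reads Chmp2a and Chmp2b were higher and Chmp3 lower with micronuclei, whereas the medians of all 3 filament-capping subunits and their mean log2(CPM + 1) were higher. Chmp2a (chromosome 7, 13032010 to 13034807, minus strand) ranged from 0 to 418 CPM with and from 0 to 384 CPM without micronuclei, with medians of 131 and 123. Its sums were 218 (209 to 227) and 149 CPM (142 to 156), a log2 ratio of 0.55. The ratio was 0.10 with equal weights, and the difference of mean log2(CPM + 1) was 0.51. Chmp2b, its close relative that is mutated in a familial form of frontotemporal dementia (chromosome 16, 65539128 to 65562726, minus strand), had medians of 39.2 and 17.5 CPM and highest values of 199 and 135 CPM. Its sums were 57.1 (52.7 to 61.7) and 30.1 CPM (27.1 to 33.5), a log2 ratio of 0.90 that lay between 0.63 without non-micronucleated cell 7 and 1.20 without non-micronucleated cell 10. With equal weights it was 0.51 and after thinning 0.44, and the difference of mean log2(CPM + 1) was 0.75. In 3 micronucleated cells Chmp2b exceeded the top value of the other group.

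Chmp3, which works with Chmp2a in closing the filament (chromosome 6, 71543797 to 71582609, plus strand), was the gene past 2-fold in the other direction. It ranged from 0 to 435 CPM around a median of 146 in micronucleated cells, and from 0 to 1164.0 CPM around 133 in the others. Cells 5 (1164.0 CPM) and 8 (715 CPM) without micronuclei were the only ones above the highest micronucleated cell, whereas the medians of the groups were close. Summed, Chmp3 was at 117 CPM (111 to 124) with and 253 CPM (244 to 262) without micronuclei, which is a log2 ratio of −1.10 (−1.20 to −1.01). Cell 5 held 27.2% of its reads, and without that cell the log2 ratio was −0.52. With equal weights it was −0.57, and as a difference of mean log2(CPM + 1) it was 0.084, so the call past 2-fold did not hold in either. Chmp3 reached 5 reads in 16 of the 21 and 11 of the 14 cells. An antisense gene shares 96 bases with its exons (2.95%).

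Among the late-acting subunits, Chmp1a (chromosome 8, 123204264 to 123212763, minus strand) showed the widest gap between group medians, 84.7 CPM with and 7.60 without micronuclei. The highest cells were close, at 217 and 190 CPM. Summed, Chmp1a stood at 78.3 CPM (73.2 to 83.7) against 54.5 (50.3 to 58.9) (log2 ratio 0.51), while the difference of mean log2(CPM + 1) was 1.49. At least 5 reads were found in 14 of 21 cells (66.7%, 43.0 to 85.4) and in 8 of 14 (57.1%, 28.9 to 82.3), and after thinning in 12 of 18 and 5 of 13. The mean level was 88.5 CPM (SD 72.4) against 61.3 (SD 73.2), a difference below either SD. Without non-micronucleated cell 11, which held 17.2% of its reads, the log2 ratio was 1.08, and without non-micronucleated cell 7 it was 0.24.

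Chmp1b, its single-exon relative, summed to 37.3 CPM (33.8 to 41.03) with and 63.6 CPM (59.1 to 68.3) without micronuclei, a log2 ratio of −0.75. The medians were 10.6 and 7.57 CPM and the highest cells 142 and 302 CPM, so the sums and the medians pointed in opposite directions. Non-micronucleated cell 5 held 25.98% of the reads of Chmp1b, and without it the log2 ratio was −0.15; without micronucleated cell 7 it was −1.52. Reads of Chmp1b are uncertain, since an antisense gene covers 605 bases of its exon (23.97%) and it is not stated whether strand was used in counting. In micronucleated cells Chmp1a made up 67.8% (65.1 to 70.3) of the reads of this pair, and in the others 46.2% (43.5 to 48.9). Leaving out single cells gave 62.7% (micronucleated cell 11) to 80.3% (micronucleated cell 7) for the first share and 40.8% (non-micronucleated cell 11) to 58.9% (non-micronucleated cell 5) for the second. Per kb of exon Chmp1a was above Chmp1b in 14 of 21 and 7 of 14 cells, and below it in 5 and 5.

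Chmp5, a regulator that binds the Vps4 cofactor Vta1 (chromosome 4, 40948407 to 40965303, plus strand), was the most widely detected of the 10. It reached 5 reads in 18 of the 21 and 13 of the 14 cells, with levels of 0 to 552 CPM (median 157) and 0 to 702 CPM (median 174). The sums of 189 CPM (181 to 198) and 225 (216 to 233) gave a log2 ratio of −0.24. Leaving out non-micronucleated cell 5 turned it to 0.073, so Chmp5 had no stable direction.

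The ATPases had different profiles. Vps4a (chromosome 8, 107031222 to 107045755, plus strand, with 57 exon bases, 2.26%, shared with the opposite-strand gene Pdf) had no read in 9 of 21 and 7 of 14 cells. Its medians were 33.7 and 4.48 CPM, yet its highest cell was higher without micronuclei, 300 CPM in cell 6 against 126 CPM. Summed, Vps4a was lower at 24.9 CPM (22.05 to 28.02) with and 50.6 CPM (46.6 to 54.9) without micronuclei, which is a log2 ratio of −0.995 (−1.20 to −0.79) just inside 2-fold. Cells 4 and 6 without micronuclei, at 167 and 300 CPM, were the only ones above the highest micronucleated cell, and without cell 6 the log2 ratio was −0.33. The difference of mean log2(CPM + 1) was 0.46, in the other direction.

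Vps4b (chromosome 1, 106764071 to 106796728, minus strand) was even between the groups in summed reads, 77.0 CPM (72.0 to 82.4) with and 79.2 CPM (74.2 to 84.5) without micronuclei, which is a log2 ratio of −0.04 (−0.17 to 0.09). With equal weights the log2 ratio was −0.23, and the difference of mean log2(CPM + 1) was −0.65, so it was even in sums only. Levels of Vps4b were 0 to 296 CPM (median 58.9) and 0 to 209 CPM (median 66.2). It reached 5 reads in 15 of the 21 and 12 of the 14 cells, and had no read in 4 and 1. The sign of its ratio depended on the cell left out, from −0.50 without micronucleated cell 14 to 0.36 without non-micronucleated cell 4. Vps4a made up 24.4% (21.9 to 27.04) of the reads of the ATPase pair in micronucleated cells and 38.99% (36.5 to 41.5) in the others. Single cells moved these shares beyond their intervals: the first was 34.03% without micronucleated cell 14, and the second was 27.33% without non-micronucleated cell 6. They are shares of reads, and Vps4b has 8.905 kb of merged exons against 2.522 kb for Vps4a. Per kb of exon, the sums of Vps4a and Vps4b were 9.87 and 8.65 CPM with micronuclei, and 20.1 and 8.90 CPM without. Per cell, Vps4a was above Vps4b per kb in 11 of 21 and 6 of 14 cells, and below it in 7 and 8. Of all 35 cells 13 had at least 5 reads of both ATPases, 14 of Vps4b without Vps4a, 4 of Vps4a without Vps4b and 4 of neither; all 4 of these last held micronuclei, and after thinning neither ATPase reached 5 reads in 3 of 18 and 4 of 13 cells.

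**Figure D3:**
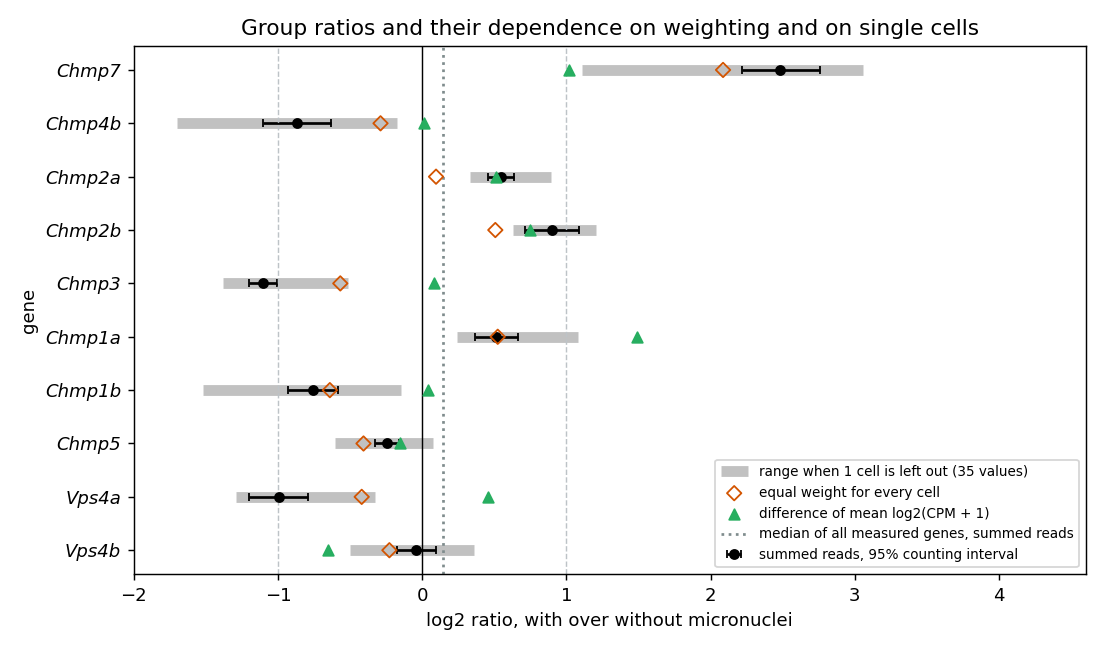
Log2 ratio of each gene, with over without micronuclei: black points are summed reads with 95% counting intervals, grey bars the range over 35 leave-one-cell-out values, orange diamonds equal weights, green triangles the difference of mean log2(CPM + 1); dashed lines mark 2-fold and the dotted line the median of all measured genes (0.15). Chmp7 lay above 1 in every case shown (1.02 to 3.05), while Chmp3, Chmp4b, Chmp1b and Vps4a were below 0 in sums and at 0.01 to 0.46 as differences of means.

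Of the 10 genes, 8 kept the sign of the summed ratio with equal weights and whichever single cell was dropped, against 53.7% of all measured genes. They were 4 higher (Chmp1a, Chmp2a, Chmp2b and Chmp7) and 4 lower (Chmp1b, Chmp3, Chmp4b and Vps4a), against 33.5% and 20.1% of all measured genes; no test was made of this. The difference of mean log2(CPM + 1) was not part of this rule. In that measure the 4 higher genes stayed above 0, but the 4 lower ones were above 0 too. They stood at 0.038 (Chmp1b), 0.084 (Chmp3), 0.012 (Chmp4b) and 0.46 (Vps4a), so their sign was not kept there. A kept sign also did not mean a kept size. Non-micronucleated cell 5 held the most reads of any cell for 4 of the 10 genes (Chmp1b, Chmp3, Chmp4b and Chmp5), with 2546 CPM over the 10 against a group median of 804 CPM; it had 3926 genes detected and 990546 reads. When each gene was taken without the cell with most of its reads, 2 were past 2-fold higher, Chmp7 at 1.11 and Chmp1a at 1.08, and 0 lower, against 30.3% of all measured genes treated likewise (23.8% higher and 6.42% lower). Summed over the 10 genes, the level per cell had a median of 850 CPM (272 to 1498, SD 373) with and 804 CPM (594 to 2546, SD 488) without micronuclei, which differ by less than either SD.

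The number of the 10 genes found in a cell tracked how many genes were found at all. At least 5 reads were reached by a median of 6 of the 10 (range 2 to 10) with and 6.5 (range 3 to 9) without micronuclei. After thinning the medians were 6 (range 2 to 8) and 5 (range 1 to 7). Across the 35 cells Spearman's rho of this number was 0.73 with genes detected and 0.40 with total reads, which are properties of the same libraries. All 10 genes reached 5 reads in 3 cells, micronucleated cells 2, 8 and 9, and in 0 of 14 others. The binomial interval of that 0 runs up to 23.2% if cells are counted as independent. After thinning no cell reached all 10. The median of genes detected was 6812 with and 6082 without micronuclei. Single genes followed genes detected to different degrees, with rho of their CPM at 0.53 for Chmp2b, 0.52 for Vps4a and 0.46 for Chmp1b but 0.06 for Chmp5 and −0.03 for Vps4b.

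**Figure D4:**
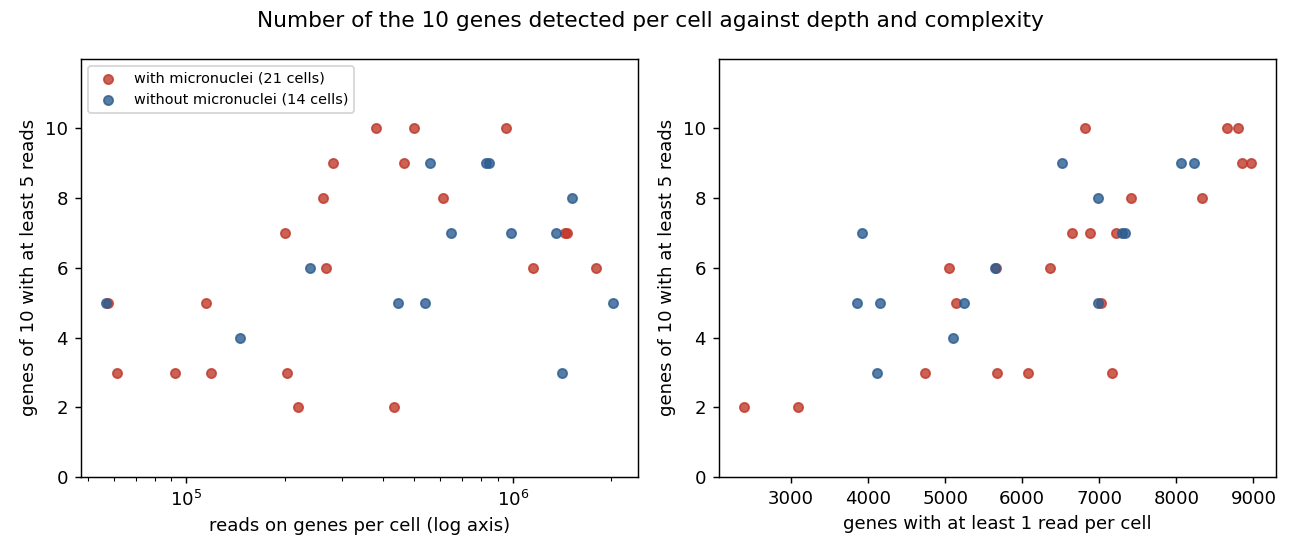
Number of the 10 genes with at least 5 reads in each cell (vertical) against reads on genes (left, log axis) and against genes with at least 1 read (right); red with and blue without micronuclei. The number followed genes detected (rho 0.73) more closely than depth (rho 0.40), and the 3 cells with all 10 genes had 6812, 8662 and 8805 genes.

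How many cells held several filament subunits at once depended on which subunits were asked for. Chmp2a and Chmp2b both reached 5 reads in 12 of 21 micronucleated and 7 of 14 other cells, and after thinning in 9 of 18 and 3 of 13. Chmp2a, Chmp3 and Chmp4b together reached 5 reads in 6 of 21 micronucleated cells (28.6%, 11.3 to 52.2) and 6 of 14 others (42.9%, 17.7 to 71.1), and each of these 12 cells also had an ATPase at 5 reads. After thinning they did so in 0 of 18 and 2 of 13. Chmp7 and Chmp4b, the recruiter and the filament, were found together in 4 of 21 and 3 of 14 cells, and after thinning in 0 of 18 and 1 of 13. A transcript below 5 reads is not an absent protein.

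Between pairs of the 10 genes, co-variation over the 31 cells at equal depth was weak. Over 45 pairs the median rho was 0.10, with 30 above 0, and the cells differ in genes detected, which all pairs share. The highest were Chmp1a with Vps4a (0.48) and Chmp3 with Vps4a (0.45). For the first of these, rho was 0.74 over 18 micronucleated and −0.0016 over 13 other cells. The lowest was Chmp2a with Chmp3, at −0.55. This pair was at −0.35 in the micronucleated and −0.78 in the other cells, and at −0.43 over all 35 cells without thinning. Both genes reached 5 reads in 16 of the 31 thinned cells. Micronucleated cell 1, for example, had 291 CPM of Chmp2a and 167 of Chmp3, and non-micronucleated cell 6 had 279 and 213. Opposed values of the pair were seen in some cells of both groups, and the cells that follow were picked for them. Without micronuclei, cell 5 had 14.1 CPM of Chmp2a and 1164.0 of Chmp3. Cell 8 of that group had 0 and 715, and its cell 7 had 301 and 0. With micronuclei, cell 17 had 329 and 0, cell 7 had 418 and 17.3, and cell 21 had 0 and 332. No p-value is given, since cells are not replicates and the pair was singled out after its value was seen.

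The 6 best detected of the 10 were compared with the 3810 genes that had at least 5 reads in 18 or more cells. Only these 6 of the 10 were among the candidates, so closest patterns from other genes were to be awaited. The nearest of the 6 to each other one ranked from 463 (for Chmp3) to 1793 (for Chmp2a). Chmp1a was most like Ist1, an ESCRT-III-like protein that binds Chmp1 subunits (rho 0.71 over 31 cells), and St3gal2 (0.67). The closest to Chmp2a was Jkamp (0.71); the closest to Chmp2b were Ube3b (0.75) and Atxn2l (0.72), and to Chmp3 they were Immt (0.72) and 0610037L13Rik (0.61). The closest to Chmp5 were the clathrin light chain gene Clta (0.65) and Mir22hg (0.63), and to Vps4b Znhit3 (0.62) and Ets1 (0.60). These are the highest of 3809 values each and serve as description.

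Of 33 other genes of the ESCRT pathway, 31 were in the table and 27 were measured. Of the 27, 14 had higher and 13 lower sums with micronuclei, and 56.0% of all measured genes had higher ones. Past 2-fold were 7 higher and 3 lower, against 22.9% and 14.7% of all measured genes. The median log2 ratio of the 27 was 0.06 in sums (0.15 for all measured genes) and 0.08 with equal weights (0.05). As a difference of mean log2(CPM + 1) it was 0.49 (0.30). Whether it lay above or below the other genes thus depended on the weighting. Of the ESCRT-III subunits outside the 10, Chmp6, which links ESCRT-II to the filament, stood at 77.0 against 14.8 CPM (log2 ratio 2.30, and 0.70 with equal weights). Micronucleated cell 13 carried 46.2% of the Chmp6 reads; without it Chmp6 was at 1.40, and without non-micronucleated cell 10 at 3.31. Ist1 was at 44.7 against 12.9 CPM (1.72, and 1.59 with equal weights), from 1.33 without micronucleated cell 14 to 2.14 without non-micronucleated cell 6, reaching 5 reads in 12 of the 21 and 7 of the 14 cells. Chmp4c, the abscission checkpoint subunit, was too scarce to be measured, at 3.52 against 5.94 CPM.

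Upstream and regulatory genes did not share a direction. Measured were 3 genes of ESCRT-0, 6 of ESCRT-I, 2 of ESCRT-II and 14 recruiters and regulators. Past 2-fold higher were 5 of them, named after their values were seen, against 22.9% of all measured genes. Zfyve19, whose protein holds back abscission, was at 68.5 against 6.37 CPM, a log2 ratio of 3.24. That ratio ran from 2.67 with micronucleated cell 14 left out to 6.12 with non-micronucleated cell 10 left out. Zfyve19 had no read in 11 of 21 and 13 of 14 cells. Ubap1 of ESCRT-I was at 67.6 against 13.5 CPM (2.24; 1.19 without micronucleated cell 21). Stam2 of ESCRT-0 was at 56.93 against 22.99 CPM, a log2 ratio of 1.27. It ran from 0.82 (micronucleated cell 14 left out) to 2.18 (non-micronucleated cell 10 left out). With equal weights the ratio of Stam2 was 0.60 and after thinning 0.40. Cep55, which brings ESCRT proteins to the midbody, was at 13.1 against 4.05 CPM (1.48; from 0.61 with micronucleated cell 9 left out to 2.45 with non-micronucleated cell 4 left out). Cc2d1b was at 19.4 against 5.17 CPM (1.73), but at −0.69 without micronucleated cell 11, so its direction rested on that cell. Tsg101, the ESCRT-I core, was even at 208 and 199 CPM (log2 ratio 0.06), as was Lemd2, the nuclear envelope receptor of Chmp7, at 20.9 and 21.3 CPM (−0.02, reaching 5 reads in 9 of the 21 and 7 of the 14 cells). Snf8 of ESCRT-II was lower at 12.6 against 80.3 CPM (−2.58, and −1.38 with equal weights; −2.06 without non-micronucleated cell 7). Pdcd6ip, the gene of ALIX, which recruits Chmp4 proteins, was at 139 against 194 CPM (−0.48). The Vps4 cofactor Vta1 was at 72.8 against 91.0 CPM (−0.32, and 0.46 without non-micronucleated cell 4). Spast, a microtubule-severing enzyme that ESCRT-III brings to the midbody and the nuclear envelope, was lower at 5.23 against 16.1 CPM (−1.46; −0.94 without non-micronucleated cell 4 and −2.13 without micronucleated cell 13). The third gene past 2-fold lower was Vps37c (−1.13), named after its values were seen, and it was at 3.45 without non-micronucleated cell 5 and at −2.62 without micronucleated cell 6.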

How the data were processed

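The authors deposited raw read counts per gene for 35 cells as whole numbers, with 62 ERCC spike-ins that stayed out of totals. STAR and GRCm38.p5 are the aligner and build per the submitters' processing notes; per the deposited phenotype table they were counted with Rsubread and cells were kept with scater at ERCC shares up to 10%, at least 2000 genes and at least 40000 counts. Of versions and strand use, the sources used here say nothing. No further cell was left out, no doublet caller was run on these hand-picked cells, and 0 columns of other samples were present.

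Summed counts per group (11084425 with and 11612303 without micronuclei) were scaled to CPM. The ratios from sums and from equal weights were tested on simulated data, and the filters were not. The members and gene lists were chosen with earlier results of these data known. All 10 members are described; of other pathway genes Chmp6, Ist1, Chmp4c, Tsg101, Snf8, Pdcd6ip, Lemd2, Vta1 and Spast are named whatever their values, and 2 most similar genes for each member with at least 5 reads in 18 cells, one of which is not reported here. Exon lengths and positions come from GENCODE M21 on GRCm38, matched by symbol. Alternatives were equal weights, mean log2 CPM, edgeR TMM factors, totals without mitochondrial genes, 0.1 or 5 CPM added, and no or stricter filters (20 CPM, 10 cells). Further ones were read minimums of 1 or 10, thinning, and leaving out each cell. Also left out were 4 cells with at least 2 macrophage markers at 5 reads, or 6 cells of few genes (under 4000) or a mitochondrial share over 9%. The tools were edgeR 4.0.16 in R 4.3.3, and scipy 1.17.1, matplotlib 3.10.9, pandas 2.3.3 and numpy 2.4.6 in Python 3.11.15.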

Additional observations from a re-analysis of the deposited data

How the results depend on the processing

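No paired analysis was possible because the cells carry no shared replicate number and no test was made. The number of the 10 genes past 2-fold was 2 in sums, against 37.7% of the 8390 measured genes. It was 1 with equal weights and 4 with TMM factors, and within 1.5 times of 2 in the 9 other settings; it was also 2 when each gene was taken without the cell with most of its reads, a setting chosen, like the leave-outs of the pair shares, after seeing the data; leaving out single cells gave 2 to 5, with 4 without non-micronucleated cells 1, 3, 10, 11 or 13 and 5 without non-micronucleated cell 7. The median log2 ratio of the 10, −0.14, was −0.26 with equal weights, −0.28 with TMM factors, −0.36 after thinning, 0.27 in mean log2 CPM and 0.22 without the 6 cells of few genes or high mitochondrial share; leaving out single cells gave −0.35 (without micronucleated cell 14) to 0.11 (without non-micronucleated cell 5). TMM scaling moved the median of all measured genes from 0.15 to 0.01. The genes past 2-fold changed between settings even where their number did not. Chmp3, past 2-fold lower in sums, was at 0.084 in mean log2 CPM and at −0.73 after thinning. Beside Chmp7, the gene past 2-fold was Chmp1a in mean log2 CPM (1.49) and Chmp4b after thinning (−1.05). Chmp7 stayed higher in all 11 other settings and 35 leave-outs. The difference in the number of the 10 genes per cell moved by less than 1 SD over cells in all 5 other settings and 35 leave-outs. Causes were not tested. At equal depth Chmp4b reached 5 reads in 2 of 18 and 5 of 13 cells, and Chmp7 in 5 of 18 and 2 of 13, so counts of cells with a gene depend on depth.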
